A study of Arabidopsis thaliana with 7 samples.

Results

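The FLC clade of Arabidopsis thaliana was examined together with its partner SVP in seedlings of the hon45 mutant and of the wild type. The members were chosen by gene identifier, as FLC, FLM, MAF2, MAF3, MAF4, MAF5 and SVP, and all 7 were found among the 32548 genes of the deposited count table. All 7 passed the filter on low counts and the filter on low FPKM. The RNA libraries comprised 2 from the hon45 mutant, which is affected in HON4 and in HON5, and 2 from the Col-0 wild type (WT). Both genotypes were sampled as whole seedlings at 10 days after germination, from plants grown at 22 °C on agar medium under long days (16 h light, then 8 h dark). The labels do not give the hon4 and hon5 alleles, and nothing says that the replicates came from separate cultures, so the p-values measure the spread between these libraries, which may be technical. Another 3 samples of the series, 2 labelled HON5_IP and 1 labelled WT_IP, are chromatin immunoprecipitations and were not analysed here.

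FLC encodes a MADS-box transcription factor that delays flowering by repressing FT and SOC1, and it is silenced by prolonged cold. Its level is raised by the FRIGIDA complex and lowered by the autonomous pathway and by Polycomb proteins. Col-0 carries a non-functional FRIGIDA allele, so FLC is only weakly expressed in this accession. FLM and MAF2 to MAF5 are the paralogs of FLC, MAF2 to MAF5 lie next to each other on chromosome 5, and SVP is a MADS-box repressor of a different clade that binds DNA together with FLC and FLM. The title of the series names flowering time and gene looping as its subject. The comparison of hon45 with WT addresses whether the transcripts of these repressors differ where HON4 and HON5, proteins with a linker-histone-like domain, are affected.

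Libraries held 53858439 to 63543079 counts. The label check held in every library: HON5 stood at 14.0 and 15.9 CPM in the hon45 libraries, against 97.7 and 91.7 CPM in the WT libraries, and HON4 at 39.2 and 41.0 CPM in hon45, against 99.3 and 104 CPM in WT. CPM are counts set to a common library total after TMM scaling. The shoot markers RBCS1A, LHCB1.3 and LHCB2.1 and the root markers PYK10, CASP1 and EXP7 were all present in every library. Of the 3 root markers 2 fell in hon45, CASP1 by 0.51 and EXP7 by 0.47 on the log2 scale (edgeR adjusted p = 0.0123 and 0.016), whereas PYK10 had a log2 difference of 0.25 without passing (edgeR adjusted p = 0.54). Of the 3 shoot markers none passed, with log2 differences of 0.42 for RBCS1A, 0.18 for LHCB1.3 and −0.05 for LHCB2.1 (edgeR adjusted p = 0.309, 0.795 and 0.935). The markers of each organ thus did not share a direction. The summed root markers, nearly all of which was PYK10, stood at 3928 and 4015 CPM in hon45, against 3204 and 3604 CPM in WT, and the summed shoot markers at 25545 and 26172 CPM in hon45, against 21223 and 24781 CPM in WT. The part of these differences in the results was not tested, and in whole seedlings fewer cells of a type and less RNA per cell cannot be told apart.

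FLC was the member that rose in hon45. FLC (AT5G10140; TAIR10 chromosome 5, 3173497 to 3179448) had 12.7 and 11.1 CPM in hon45, from 767 and 633 counts, against 6.72 and 7.24 CPM in WT, from 364 and 461 counts. Both hon45 libraries lay above both WT libraries, and the gap between the genotypes was wider than the spread within either. The log2 fold change was 0.77 (SE 0.14; 95% confidence interval of the fold 1.39 to 2.08), with an adjusted p of 0.00381 by edgeR's quasi-likelihood test, Benjamini-Hochberg adjusted across 29226 genes. FLC was the 1 of 7 members that rose and 0 fell, where 4.1% of all tested genes were called, 2.48% higher and 1.63% lower. The direction was the same with each of the 4 libraries left out in turn. The log2 fold change was 0.70 without hon45 replicate 1, where the call was lost (edgeR adjusted p = 0.0529), 0.86 without hon45 replicate 2 (edgeR adjusted p = 0.0253), 0.72 without WT replicate 1 and 0.82 without WT replicate 2.

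The reads of FLC cannot be separated from those of AT5G01675, a long non-coding RNA gene whose span covers FLC. AT5G01675 had 775 and 634 counts in hon45 and 371 and 464 counts in WT. These exceed the FLC counts by only 8 and 1 in hon45 and by 7 and 3 in WT, so nearly every read counted for one gene was counted for the other. Nothing in the sources says that counting used the strand, and sense FLC transcripts and antisense transcripts of the locus, known as COOLAIR, therefore cannot be told apart in these counts.

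**Figure D1:**
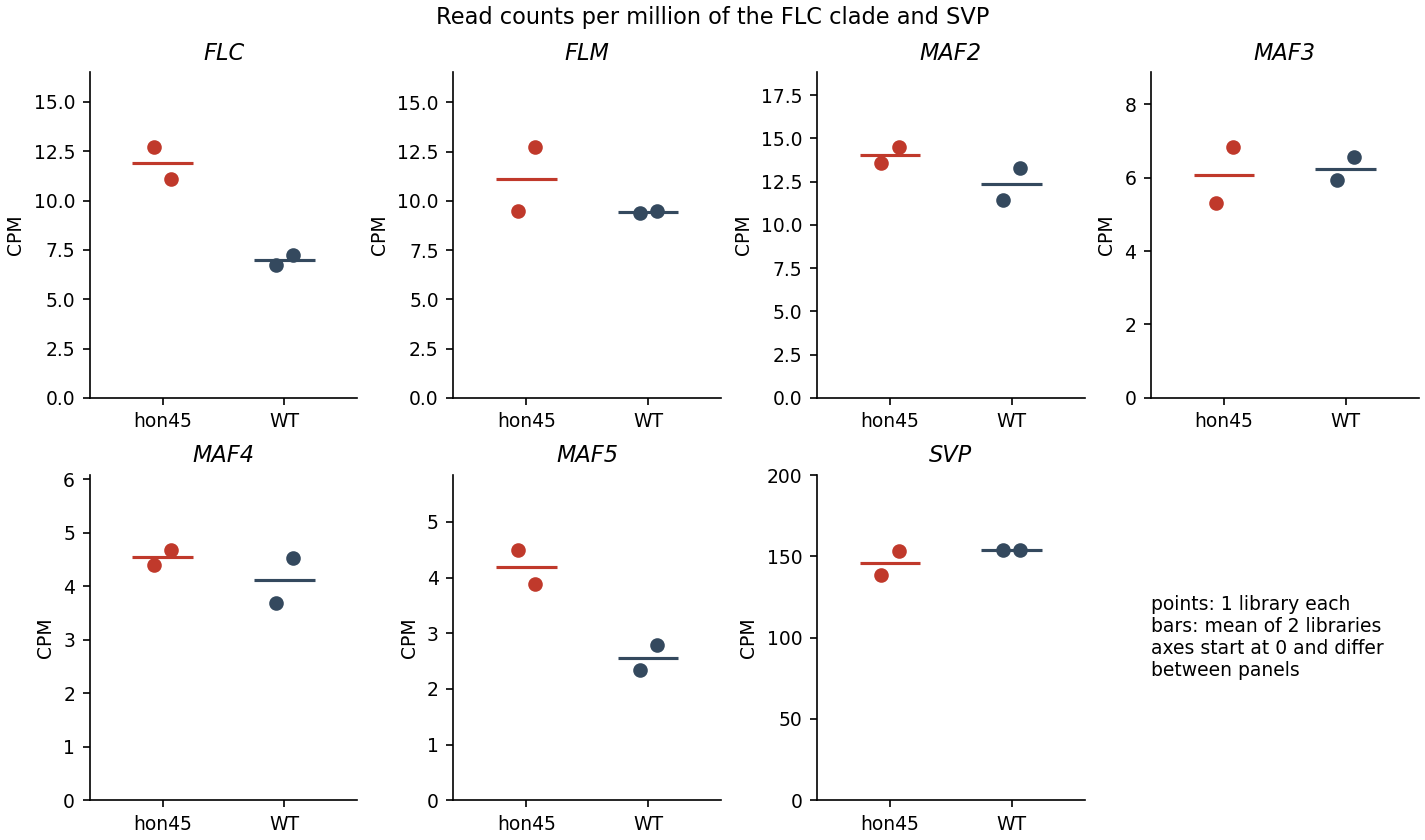
CPM (y axes from 0, scale differing between panels) of each member, with hon45 left of WT; each point is 1 library and each bar the mean of 2 libraries. FLC and MAF5 show both hon45 points well above both WT points, at 12.7 and 11.1 against 6.72 and 7.24 CPM for FLC, whereas in FLM, MAF3 and MAF4 the points of the genotypes overlap.

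MAF5, the paralog at the far end of the tandem cluster, which delays flowering when overexpressed, came closest to FLC in size of difference but did not pass the count test. MAF5 (AT5G65080; chromosome 5, 25997504 to 26002465) had 4.50 and 3.88 CPM in hon45, against 2.35 and 2.78 CPM in WT. The 4 libraries held 127 to 272 counts of it, for which counting alone gives an error of 6.06% to 8.87% per library. Both hon45 libraries lay above both WT libraries. The log2 difference was 0.70 (SE 0.21; 95% confidence interval of the fold 1.20 to 2.22), with an edgeR adjusted p of 0.066. MAF5 passed with RLE size factors (0.73, edgeR adjusted p = 0.0255), in the edgeR exact test (adjusted p = 0.0331) and without ribosomal RNA genes (edgeR adjusted p = 0.0412). Those settings called 1581, 1606 and 1414 genes in all, against 1199 in the main fit. MAF5 did not pass with limma-voom (0.70, adjusted p = 0.0664). Nor did it with the gene-length trend from 5 CPM removed (0.63, edgeR adjusted p = 0.129). With a library left out, its difference ran from 0.59 to 0.84.

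FLM, also called MAF1, is a repressor whose splicing responds to ambient temperature, and MAF2 prevents flowering after short spells of cold. FLM (AT1G77080; chromosome 1, 28955637 to 28960096) had 9.47 and 12.7 CPM in hon45, against 9.38 and 9.47 CPM in WT. One hon45 library thus lay level with WT and the other above it, and the log2 difference of 0.23 (SE 0.15, edgeR adjusted p = 0.43) was within the spread of the hon45 libraries. MAF2 (AT5G65050; chromosome 5, 25982254 to 25986326) had 13.6 and 14.5 CPM in hon45, against 11.4 and 13.3 CPM in WT. The hon45 libraries were both higher, but by little, with a log2 difference of 0.18 (SE 0.12, edgeR adjusted p = 0.479). The intervals of the fold for FLM, 0.952 to 1.45, and for MAF2, 0.947 to 1.36, included 1 and excluded the 1.70-fold estimate of FLC. The interval of FLC itself, 1.39 to 2.08, overlaps that of FLM but not that of MAF2. The differences between genes were themselves not tested.

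MAF3 and MAF4, repressors that act with other members of the clade, showed overlapping libraries. MAF3 (AT5G65060; chromosome 5, 25987429 to 25991315) had 5.30 and 6.82 CPM in hon45, against 5.93 and 6.55 CPM in WT, so the WT libraries lay between the hon45 libraries. Its log2 difference was −0.05 (SE 0.17, edgeR adjusted p = 0.923), and its sign depended on the library left out. MAF4 (AT5G65070; chromosome 5, 25992243 to 25996174) had 4.40 and 4.69 CPM in hon45, against 3.69 and 4.54 CPM in WT, a log2 difference of 0.14 (SE 0.19, edgeR adjusted p = 0.766).

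SVP, which represses FT and SOC1 and takes part in the response of flowering to ambient temperature, was by far the most abundant member and the most precisely measured. SVP (AT2G22540; chromosome 2, 9579874 to 9583893) had 138 and 153 CPM in hon45, against 154 and 154 CPM in WT, from 8322 to 9814 counts per library. Both hon45 libraries lay below both WT libraries, the second by less than 1 CPM. The log2 difference was −0.08 (SE 0.10, edgeR adjusted p = 0.74), and the 95% interval of the fold, 0.819 to 1.09, excludes a rise as large as the estimate for FLC. Of the 7 members, 3 had both hon45 libraries above both WT libraries and 1 had both below, where 23.1% and 26.2% of all tested genes did so, 49.3% in all.

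The second deposited quantity, FPKM (fragments per kilobase of transcript, set relative to sequencing depth), sets levels per length and lets the members be compared with each other. In hon45, SVP averaged 117 ± 6.07 FPKM (SD, n = 2), followed by FLC at 16.1 ± 1.32, FLM at 15.7 ± 4, MAF2 at 15.7 ± 0.794, MAF4 at 5.56 ± 0.406, MAF3 at 5.43 ± 0.9 and MAF5 at 4.32 ± 0.322 FPKM. In WT, SVP averaged 125 ± 0.03 FPKM, followed by MAF2 at 14.3 ± 2.78, FLM at 13.8 ± 0.495, FLC at 7.84 ± 0.874, MAF3 at 5.40 ± 1.32, MAF4 at 4.36 ± 0.761 and MAF5 at 1.27 ± 0.497 FPKM. FLC, FLM and MAF2 had overlapping libraries in hon45, whereas in WT both FLC libraries lay below every FLM and MAF2 library. MAF3 and MAF4 overlapped in both genotypes, and MAF5 was lowest in both. Among the 19493 genes that passed the FPKM filter, the mean over 4 libraries placed SVP at the 93.3 percentile, FLC at 53.3 and MAF5 at 18.7.

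FLC and MAF5 both passed on FPKM. FLC had 17.0 and 15.1 FPKM in hon45, against 7.22 and 8.45 FPKM in WT, a difference of 0.95 on the log2(FPKM + 1) scale (limma-trend adjusted p = 0.0279). MAF5 had 4.55 and 4.09 FPKM in hon45, against 0.916 and 1.62 FPKM in WT, a difference of 1.25 on that scale (limma-trend adjusted p = 0.0383), which understates the change of a gene this low. MAF5 was under 1 FPKM in WT replicate 1, so it met the filter of 1 FPKM in 2 libraries only through hon45, where it is higher. For comparison, 0.621% of the genes fitted on FPKM were called, and 0.205% were called higher. The other 5 members had FPKM differences from −0.10 to 0.30 and were not called. Without a filter on low FPKM neither gene passed (limma-trend adjusted p = 0.16 for FLC and 0.201 for MAF5), with differences of 0.95 and 1.25 as before, and with a pseudocount of 0.1 MAF5 did not (1.74, adjusted p = 0.0577). Without WT replicate 2, MAF2 and MAF4 stood at 0.32 and 0.44 on FPKM, against 0.13 and 0.30 with all libraries.

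**Figure D2:**
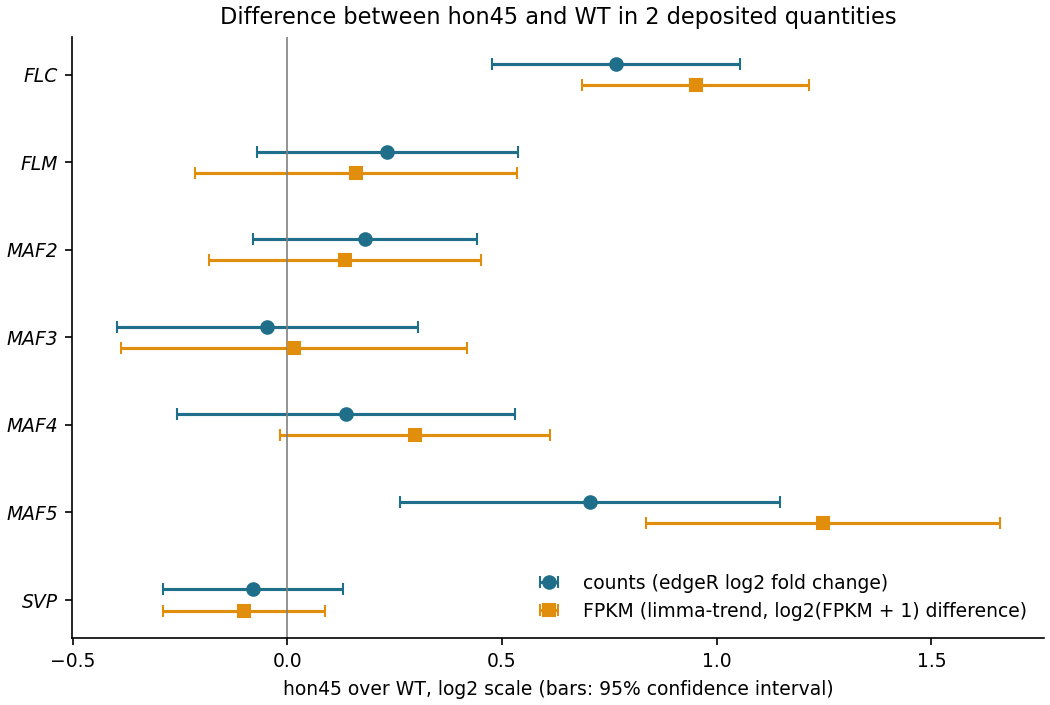
Difference of hon45 over WT for each member on the log2 scale (x axis) from counts (circles, edgeR) and from FPKM (squares, limma-trend on log2(FPKM + 1)), with 95% confidence intervals as bars and a line at 0. The intervals of FLC and MAF5 lie to the right of 0 in both quantities, and those of the other members include 0; for MAF5 the FPKM value of 1.25 lies well above the count value of 0.70.

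Counts and FPKM gave different sizes of change for MAF5. The ratio of group means was 1.64 in CPM and 3.41 in FPKM, whereas for FLC it was 1.70 in CPM and 2.05 in FPKM, and for SVP 0.946 in CPM and 0.933 in FPKM. A count and an FPKM value of the same gene and library together imply a length. For MAF5 this was 1003 and 929 bases in hon45, against 2573 and 1721 bases in WT. The WT libraries thus held far more MAF5 counts for each unit of FPKM than the hon45 libraries did. The ratio of the implied lengths of hon45 over WT was 0.45 for MAF5, lower than in all but 0.483% of 23794 genes with a value, and lower than in all but 0.108% of the 9287 genes with 100 to 1000 counts in each library. For FLC the implied length was 756 and 716 bases in hon45, against 936 and 858 bases in WT. The ratio was 0.821 (percentile 6.77, or 4.18 among the genes with 100 to 1000 counts). For SVP it lay between 1234 and 1245 bases in all 4 libraries. The files list 3 transcription start groups for FLM, 2 each for MAF2, MAF3, MAF4 and MAF5, and 1 each for FLC and SVP. The ratio of implied lengths was 1.03 for FLM, 1.02 for MAF2, 0.94 for MAF3 and 0.86 for MAF4. Among the genes with 100 to 1000 counts these lay at percentiles 86.1, 83.8, 22.8 and 6.86. The files hold no value per isoform, so isoform use and the assignment of reads shared among paralogs were not tested. The handling of reads that match more than one paralog is not given in the sources used here, and the split of reads within MAF2 to MAF5 is uncertain for that reason.

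**Figure D3:**
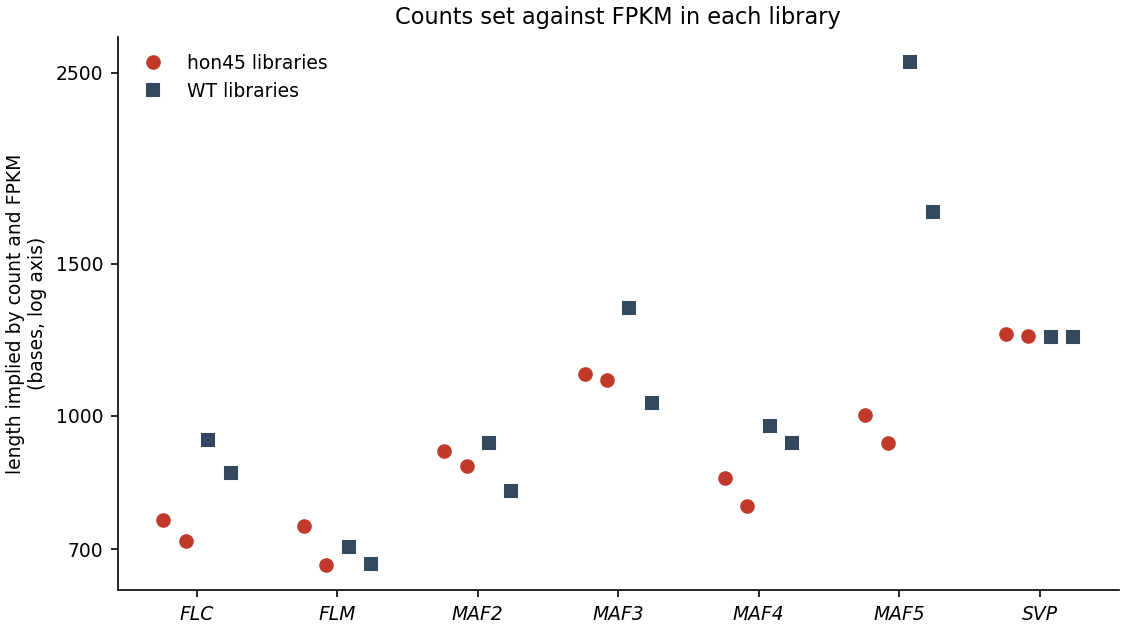
Length in bases (y axis, log scale) that the count and the FPKM value of each member imply in each library, hon45 libraries as circles and WT libraries as squares to their right. MAF5 stands apart, with 1003 and 929 bases in hon45 and 2573 and 1721 bases in WT, while the 4 values of SVP lie together.

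FLC made up a larger part of its clade in hon45. It took 25.4% of the summed counts of the 6 clade members in hon45 replicate 1 (exact Clopper-Pearson 95% interval 23.9% to 27.0%) and 20.6% in hon45 replicate 2 (19.2% to 22.1%), against 17.0% in WT replicate 1 (15.5% to 18.7%) and 16.5% in WT replicate 2 (15.1% to 17.9%). These intervals cover counting error only. Those of the hon45 libraries lie above those of the WT libraries, but they do not overlap each other either. The hon45 libraries thus differ by more than counting error, so the intervals do not test the genotypes. On FPKM the share of FLC was 28.5% and 23.0% in hon45, against 17.1% and 16.4% in WT. FLC relative to FLM was 1.32 and 0.816 in hon45, against 0.538 and 0.599 in WT. The summed FPKM of the 6 clade members was 59.6 and 65.9 in hon45, against 42.2 and 51.7 in WT, so that SVP was 1.89 and 1.84 times the clade sum in hon45 and 2.97 and 2.42 times in WT. Within the tandem cluster MAF5 took 16.2% and 13.0% of the summed counts in hon45, against 10.0% and 10.2% in WT; the exact interval of hon45 replicate 2, 11.4% to 14.7%, overlaps those of WT, which reach 11.8% in both libraries.

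No gene next to a member passed as higher. Of the 24 protein-coding genes that flank FLC, FLM, the MAF2 to MAF5 cluster and SVP, 3 on each side of each locus, 0 rose and 2 fell, where 2.48% of all tested genes rose and 1.63% fell, so a count of 0 risen among so few genes is near the share over all genes. Their median log2 difference was 0.01. On one side of FLC, DFC (AT5G10130) had 15.5 and 12.5 CPM in hon45, against 16.1 and 13.2 CPM in WT. On the other side, UFC (AT5G10150) had 4.88 and 5.47 CPM in hon45, against 3.75 and 4.90 CPM in WT, with overlapping libraries (log2 difference 0.25, SE 0.19, edgeR adjusted p = 0.519). The next gene after UFC, AT5G10160, fell, with 39.0 and 38.8 CPM in hon45, against 59.5 and 61.3 CPM in WT (log2 fold change −0.64, SE 0.10, edgeR adjusted p = 0.000995). Its span meets that of MIPS3 (also named IPS3), which stood at 0.19 without passing. AT5G10160 did not pass without hon45 replicate 1 or without hon45 replicate 2 (edgeR adjusted p = 0.0519 and 0.0887), although its difference of −0.60 and −0.63 in those fits was about as large as with all libraries. Beyond MAF5, MRH3 (AT5G65090), a phosphatase gene of root hair growth, stood at 0.23 (edgeR adjusted p = 0.66).

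The other gene that fell was AT2G22510, the third from SVP. It had 41.1 and 42.6 CPM in hon45, against 69.2 and 48.7 CPM in WT, a log2 fold change of −0.49 (SE 0.13, edgeR adjusted p = 0.0313). Without WT replicate 1, the higher of the WT libraries, its difference was −0.22 (edgeR adjusted p = 0.369). The call was also lost without hon45 replicate 1 (−0.43, edgeR adjusted p = 0.195), without hon45 replicate 2 (−0.52, edgeR adjusted p = 0.274) and on FPKM (−0.46, limma-trend adjusted p = 0.152).

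**Figure D4:**
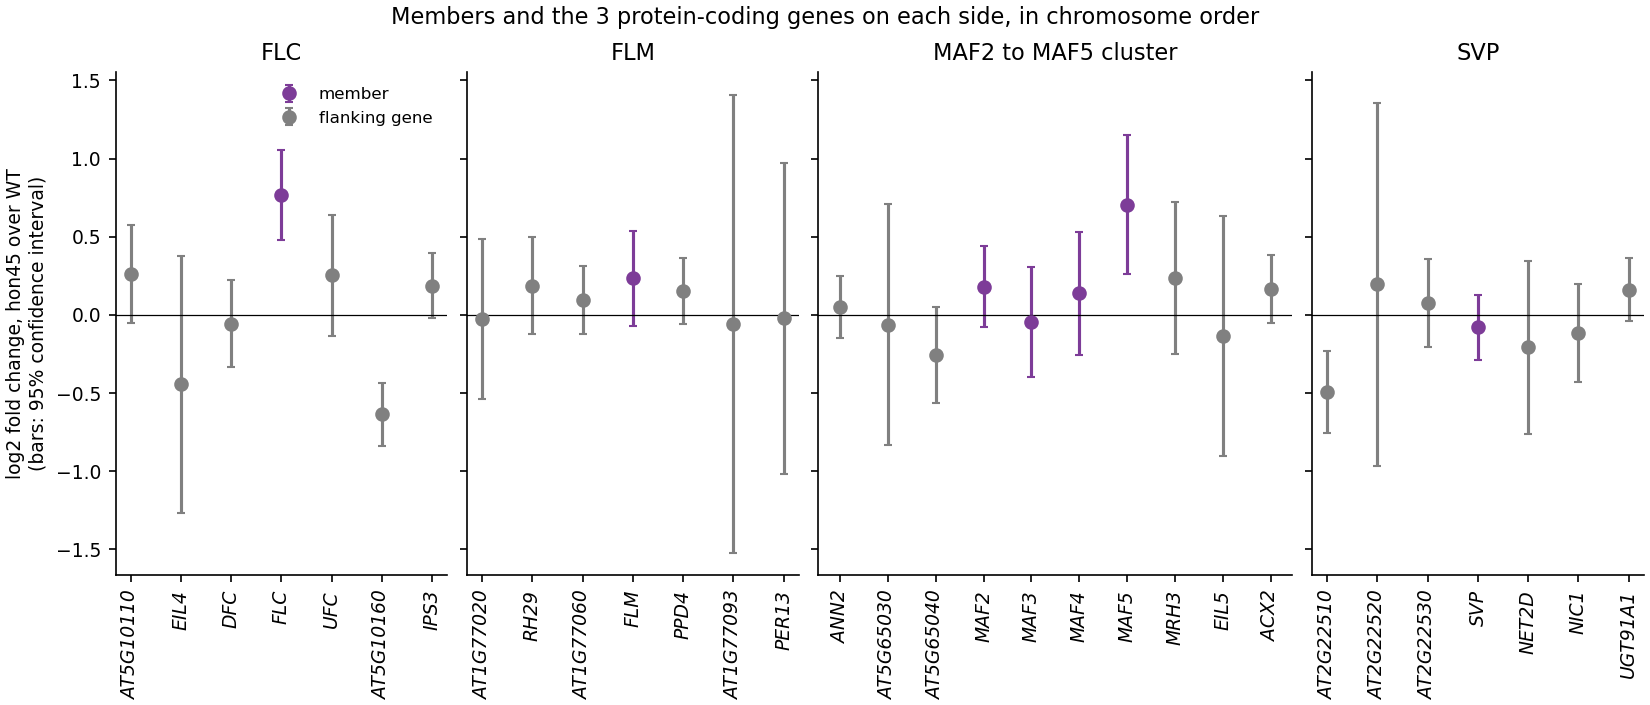
Log2 fold change of hon45 over WT (y axis, bars are 95% confidence intervals) for the members (purple) and the 3 protein-coding genes on each side of their loci (grey), in chromosome order but not to distance. FLC at 0.77 stands above its neighbours, AT5G10160 at −0.64 below them, and along the tandem cluster MAF5 at 0.70 is higher than MAF2 to MAF4.

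Genes that FLC or SVP repress were not called, and in counts all lay below 0. In a list of 9 such genes, 0 rose and 0 fell, 9 of 9 had a log2 difference under 0 and the median was −0.41, against −0.04 over all tested genes, of which 44.7% lay above 0. Only 3 of the 9 passed the filter on low FPKM: SOC1 (−0.33), FD (−0.31) and SPL15 (−0.10), none called. Below that filter FPKM was not of 1 direction. AP1, a floral identity gene, averaged 0.130 FPKM in hon45 and 0.0926 FPKM in WT, a ratio of 1.41. In counts AP1 stood at −0.74 (edgeR adjusted p = 0.226). Its implied lengths, 7259 to 17362 bases where computed, exceed its locus of 3984 bases, so its counts and FPKM disagree. The cause was not tested. GA20OX2, a gibberellin biosynthesis enzyme, was nearly level at a ratio of 0.987. FT, the mobile flowering signal, had 0.546 and 0.630 CPM in hon45, against 0.776 and 1.07 CPM in WT, from 33 to 68 counts. Its difference of −0.66 did not pass (SE 0.41, edgeR adjusted p = 0.427). The implied length of FT also exceeds its locus of 2507 bases in hon45 replicate 1 (3174) and WT replicate 2 (2792). The same held for TSF, another gene of the list, in hon45 replicate 2, and for GA20OX2 in hon45 replicate 2 and both WT libraries. FD, the bZIP partner of FT, had 2.86 and 4.23 CPM in hon45, against 4.97 and 4.45 CPM in WT (−0.41, edgeR adjusted p = 0.311). SOC1, the MADS-box integrator of flowering signals, had 9.62 and 10.8 CPM in hon45, against 10.0 and 15.8 CPM in WT. The hon45 values of SOC1 are close to those of WT replicate 1, and its difference of −0.35 (edgeR adjusted p = 0.277) turned on which WT library was kept: it fell by 0.63 without WT replicate 1 (edgeR adjusted p = 0.000719) and stood at 0.03 without WT replicate 2. Of the 9 genes, 5 had both hon45 libraries below both WT libraries, where 26.2% of tested genes did.

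Other MADS-box regulators of flowering were not called either, 0 of 8, with a median log2 difference of −0.15. AGL24, the closest relative of SVP and a promoter of flowering, had 4.34 and 4.06 CPM in hon45, against 3.38 and 3.46 CPM in WT (0.30, SE 0.19, edgeR adjusted p = 0.454). AGL19, a promoter of flowering that Polycomb proteins repress, had 2.17 and 1.59 CPM in hon45, against 2.90 and 2.84 CPM in WT (−0.61, SE 0.25, edgeR adjusted p = 0.2).

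Among the regulators that act on FLC, 0 of 18 activators and 0 of 18 repressors were called, where 4.1% of all tested genes were; with lists this short, a count of 0 is near that share. Of the repressors, 16 lay above 0, with a median of 0.22, and of the activators 14 lay above 0, with a median of 0.14, where 44.7% of all tested genes lay above 0 and the median was −0.04. The repressor genes with the smallest p were PRP8, a core splicing factor at 0.35 (SE 0.10, edgeR adjusted p = 0.0576), and CLF, a Polycomb histone methyltransferase at 0.46 (SE 0.14, edgeR adjusted p = 0.0715). CLF had 9.09 and 10.2 CPM in hon45, against 6.89 and 7.10 CPM in WT. The activator with the smallest p was VIP6, a Paf1 complex subunit, with 23.0 and 22.5 CPM in hon45, against 16.8 and 18.5 CPM in WT (0.36, SE 0.11, edgeR adjusted p = 0.0655). FRI itself, which is non-functional in Col-0, stood at 6.04 and 5.47 CPM in hon45, against 5.67 and 5.17 CPM in WT. These lists were chosen from general knowledge of the pathway with earlier results of these data known, and their counts are a description. The part of gene length in their medians was not tested.

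**Figure D5:**
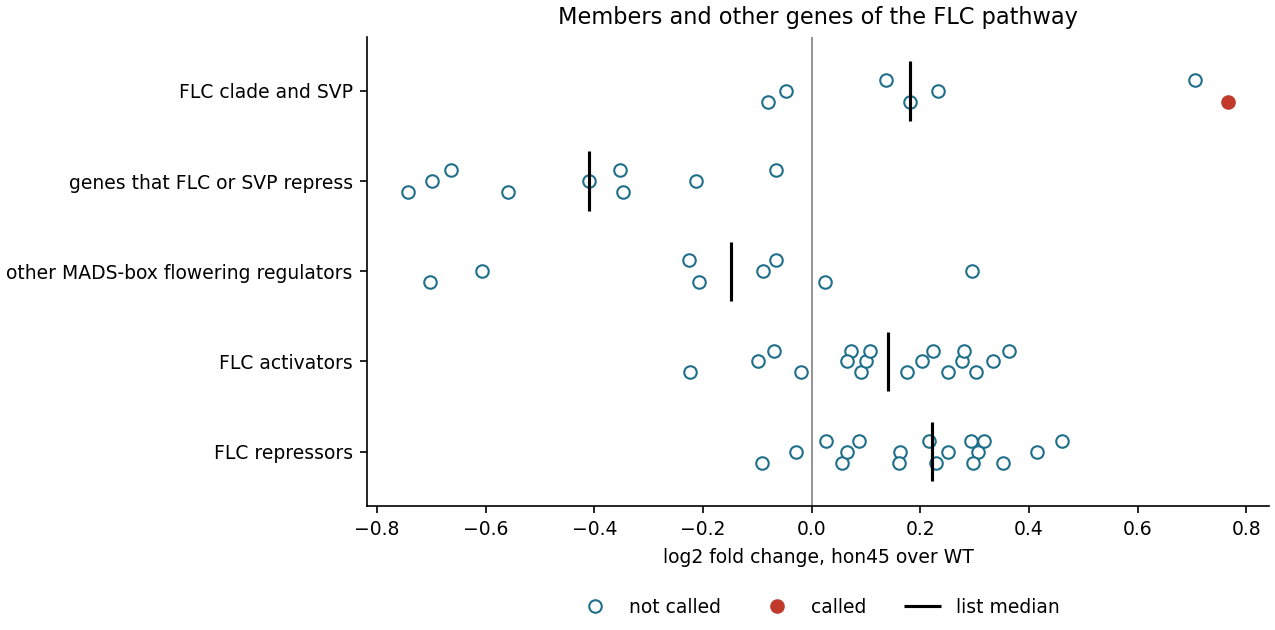
Log2 fold change of hon45 over WT (x axis) for each member and each gene of the pathway lists; filled points passed the edgeR test, open points did not, and a black line marks the median of each list. FLC is the filled point, all 9 genes that FLC or SVP repress lie below 0 in counts, and the medians of FLC activators and FLC repressors lie at 0.14 and 0.22.

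The genes whose levels over the 4 libraries were most like those of FLC were EMB2083, EMB3144 and EMB1865. Likeness was the root-mean-square difference between centred log2 CPM profiles, over 10210 candidates that averaged 5 CPM or more and overlapped no other counted gene, where the median difference from FLC was 0.383. EMB2083 lay at 0.0221, EMB3144 at 0.0402 and EMB1865 at 0.0543. EMB2083 had 17.0 and 14.3 CPM in hon45, against 8.92 and 9.38 CPM in WT. For MAF5, 15096 candidates averaged 1 CPM or more and overlapped no other counted gene. The closest were SGF29b at 0.0193, EMB3144 at 0.0243 and EMB1865 at 0.0351, so 2 genes were near both FLC and MAF5. These rules kept FLC, which overlaps AT5G01675, and MAF5, which is under 5 CPM, out of each other's candidates. With 4 libraries of 2 genotypes such likeness is a description of these libraries.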

How the data were processed

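The authors deposited raw, whole-number gene counts that were not normalized, and FPKM values were deposited by the authors in 1 file per library, per the file headers. Per the submitters' processing notes, the TAIR10 build was used with HISAT2, edgeR, Bowtie2 and deepTools. The counting program, its strand setting and the source program of the FPKM are not stated in the sources used here. Coordinates come from the FPKM files, with 1 added to the start. RefSeq names and overlaps (TAIR10.1) matched all 32548 counted genes.

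Counts were filtered with filterByExpr, scaled by TMM and tested with glmQLFit (legacy = FALSE) and glmQLFTest in edgeR 4.0.16 (R 4.3.3), with group as the only term and Benjamini-Hochberg adjustment over 29226 genes; called means an adjusted p under 0.05. FPKM were tested on the log2(FPKM + 1) scale with limma 3.58.1 (limma-trend), over the 19493 genes that reached 1 FPKM in 2 libraries. Standard errors were obtained as the size of the log2 fold change divided by the root of F. The scripts were tested on simulated data. Depth was 53858439 to 63543079 counts per library, and intervals of shares cover counting error only. The implied length is the count over FPKM and the library total, for values of at least 10 counts and 0.1 FPKM. Members and lists were chosen with earlier results of these data known. The named genes were the 7 members, HON4 and HON5, FT and SOC1, called list and flanking genes, genes overlapping a member, and the 3 nearest profiles of FLC and MAF5; the rest were examples, picked with their values in view. The alternatives comprised other scalings and filters, DESeq2 1.42.0, the edgeR exact test, a replicate block, limma-voom, leaving out each library, ribosomal RNA or overlapping genes left out and gene-length trends removed, and, chosen after the data were seen, the older quasi-likelihood method.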

Additional observations from a re-analysis of the deposited data

How the results depend on the processing

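FLC was higher in hon45 under all 17 alternatives that gave it a value, from 0.70 in counts to 0.95 on FPKM (log2 scale), and passed in 16 of them; the exception was the fit without hon45 replicate 1. MAF5 was higher in 17 of 17, from 0.59 in counts to 1.25 on FPKM, and passed in 6. DESeq2 put MAF5 at 0.73 but gave no adjusted p for MAF5 or MAF4, so it could call neither. The count of members called was 1, and it was 2, FLC and MAF5, with RLE size factors, the edgeR exact test, the replicate block, FPKM or ribosomal RNA genes left out, 0 with overlapping genes left out, which removes FLC itself, and 0 to 2 with a library left out. On FPKM with all libraries, 2 members were called, 1 with a pseudocount of 0.1 and 0 without a filter. The number called on FPKM was larger without WT replicate 2, where MAF2 stood at 0.32 and MAF4 at 0.44. With a library left out, the FPKM difference ran from 0.85 to 1.05 for FLC and from 1.02 to 1.47 for MAF5. Replicate numbers are shared between the genotypes, but nothing says that they pair the libraries, and the differences between replicates correlated at 0.062 over 15592 genes; with the replicate block MAF5 stood at 0.70 (edgeR adjusted p = 0.0487) and VIP6 at 0.37 (0.0474).

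Over all genes 1199 were called, 724 with the filter of 5 CPM, 771 with the length trend from 1 CPM removed, 121 on FPKM and 119 to 3836 with a library left out. Of the FLC activators 1 was called in the exact test and 1 with the replicate block (VIP6), and 0 to 1 with a library left out. Of the FLC repressors 1 was called with RLE size factors or the exact test (CLF), 1 with DESeq2 or overlapping genes left out (PRP8), and 0 to 2 with a library left out. Of the repressed genes, 0 to 1 (SOC1) were called with a library left out, and of the other MADS-box genes 0 under all 18 alternatives. Of the flanking genes, 1 was called with library totals, the 5 CPM filter, FPKM, overlapping genes left out or the length trend from 1 CPM removed, and 0 to 3 with a library left out.

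The sign changed for MAF3, SVP, FLM, MAF2 and SOC1, none of which was called with all libraries. With a library left out, MAF3 ranged from −0.236 to 0.163 in counts and −0.198 to 0.228 on FPKM, SVP from −0.153 to 0.0273 in counts, FLM from −0.0863 to 0.407 and MAF2 from −0.0530 to 0.320 on FPKM, and SOC1 from −0.634 to 0.0296 in counts. With all 4 libraries MAF3 stood at −0.0464 in counts and 0.015 on FPKM. The cause of these changes was not tested. A fit that leaves out a library has 1 library in that genotype, assumed to vary like the other.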
